A study of Mus musculus with 6 samples.

Results

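The genes described here are 37 genes of the endoplasmic reticulum (ER) stress response and the integrated stress response, read from Affymetrix array signals of mouse hearts. They were chosen by symbol, with earlier results of these data known. Of the 37, 36 were measured, among 18029 genes with a probe set of their own, and Gdf15 was not analysed here. They had 87 probe sets. Values are those of each gene's brightest probe set, by mean log2 signal over the 6 arrays, called its main probe set below. The genes were sorted by role into an ATF6/XBP1 arm (12 genes), a PERK/ATF4 arm (17 genes listed, 16 measured) and ER degradation (8 genes). Mean log2 signals of the members lay between 3.01 and 10.29.

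The arrays came from the hearts of 3 Tmbim1 KO mice and 3 Flox wild type mice, 1 array per mouse. All 6 mice were 8 weeks old, had a C57BL/6 background and had lived for 2 weeks with aortic banding (spelled binding in the labels), a constriction that raises the load on the left ventricle. No heart without banding was analysed here, so every difference below is one of genotype under load. How the allele was deleted, in which cells, and whether the wild type mice were littermates is not given in the sources used here. Tmbim1, which encodes a membrane protein of endosomes and lysosomes, stood at 7.53, 7.49 and 7.56 in KO hearts, against 8.58, 8.38 and 8.33 in WT hearts (difference -0.91, SE 0.10, limma adjusted p = 0.00579). Its signal was lower in each KO heart than in any WT heart. Whether the probes lie inside the deleted stretch is not known here, so this checks the labels in direction only. On the arrays' first principal component (37.4% of the variance) WT replicate 3, at -37.0, lay apart from the other WT arrays at -8.48 and -9.65. The KO arrays were at 23.4, 20.7 and 11.0, so the component also separated the genotypes. The atrial marker Myl7 was at 12.86 in KO replicate 1 and between 3.45 and 3.90 on the other 5 arrays, so that sample held atrial transcripts.

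Misfolded protein in the ER is sensed by 3 membrane proteins. IRE1 (gene Ern1) splices the Xbp1 messenger, ATF6 is cut free to enter the nucleus, and PERK (Eif2ak3) phosphorylates the initiation factor eIF2alpha, which slows translation and favours translation of ATF4. XBP1 and ATF6 raise chaperones and the degradation machinery, and ATF4, which other eIF2alpha kinases also induce, raises genes of amino acid supply and of recovery. These sensors are regulated largely by splicing, cleavage, phosphorylation and translation, which array signals do not show. In cardiac muscle the response accompanies the raised protein synthesis of hypertrophy.

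The ATF6/XBP1 and PERK/ATF4 arms act through different DNA motifs, and the promoters of several members carry them. RefSeq promoter windows (GRCm38.p6, 250 bases before to 50 after a gene start) were found for 32 of the 37 members, in 35 windows. The ER stress response element ERSE, searched on both strands as CCAAT, 9 bases of any kind and CCACG, was found in 6 of the 32 members. It occurs in 0.119% of all 32851 windows. The lines below show each match in capitals with its flanks in lower case, on the strand of the gene, and a match that reads on the other strand begins with CGTGG.
Calr (chr8:84847051-84847117, minus strand): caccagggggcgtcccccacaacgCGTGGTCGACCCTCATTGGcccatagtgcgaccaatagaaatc
Canx (chr11:50325776-50325842, minus strand): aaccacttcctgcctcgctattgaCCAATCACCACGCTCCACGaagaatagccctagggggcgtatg
Pdia6 (chr12:17266467-17266533, plus strand): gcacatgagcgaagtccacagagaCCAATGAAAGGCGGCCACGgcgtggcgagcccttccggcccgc
Creld2 (chr15:88819496-88819562, plus strand): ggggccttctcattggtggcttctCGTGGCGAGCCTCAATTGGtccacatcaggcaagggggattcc
Derl3 (chr10:75893218-75893284, plus strand): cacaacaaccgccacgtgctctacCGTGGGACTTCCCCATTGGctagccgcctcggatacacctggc
Syvn1 (chr19:6046508-6046574, plus strand): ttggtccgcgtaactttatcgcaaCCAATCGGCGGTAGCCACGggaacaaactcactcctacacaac

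The composite element CARE, to which ATF4 can bind together with C/EBP factors, was searched on both strands as TGATGNAA. It was found in 5 of the 32 members, Asns, Chac1, Trib3, Fgf21 and Herpud1, and in 3.97% of all windows. In Asns it began 23 bases before the gene start, in Fgf21 139, in Chac1 193, and in Trib3 14 bases after the start. Matches on the strand opposite to the gene appear as TTGCATCA or, in Trib3, as TTACATCA.
Asns (chr6:7693201-7693256, minus strand): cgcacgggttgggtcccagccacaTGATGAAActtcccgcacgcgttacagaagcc
Chac1 (chr2:119351025-119351080, plus strand): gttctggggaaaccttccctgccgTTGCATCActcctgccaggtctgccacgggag
Fgf21 (chr7:45615598-45615653, minus strand): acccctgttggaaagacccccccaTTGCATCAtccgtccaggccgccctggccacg
Trib3 (chr2:152344015-152344070, minus strand): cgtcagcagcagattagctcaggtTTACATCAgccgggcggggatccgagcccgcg

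Herpud1 was the member with both kinds of motif. Its window holds a CARE and an ERSE-II. The ERSE-II was searched on both strands as ATTGG, 1 base of any kind and CCACG, and was found in 0.0365% of all windows and in 1 of the 32 members. The XBP1 site UPRE, searched as TGACGTGG on both strands, was in 0 of the 32 members' windows and in 0.676% of all. Motifs were not allowed mismatches, and a match is a description of the letters, not of a bound factor. In the line below the CARE comes first, 112 bases before the gene start, and the ERSE-II second, 52 bases before it, both in capitals.
Herpud1 (chr8:94386179-94386478, plus strand): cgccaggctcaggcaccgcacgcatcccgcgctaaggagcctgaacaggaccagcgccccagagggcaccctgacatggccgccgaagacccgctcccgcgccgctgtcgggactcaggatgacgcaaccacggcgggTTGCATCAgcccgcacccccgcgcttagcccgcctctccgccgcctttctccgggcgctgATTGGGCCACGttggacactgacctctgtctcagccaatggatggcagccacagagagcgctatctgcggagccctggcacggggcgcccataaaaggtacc

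**Figure D1:**
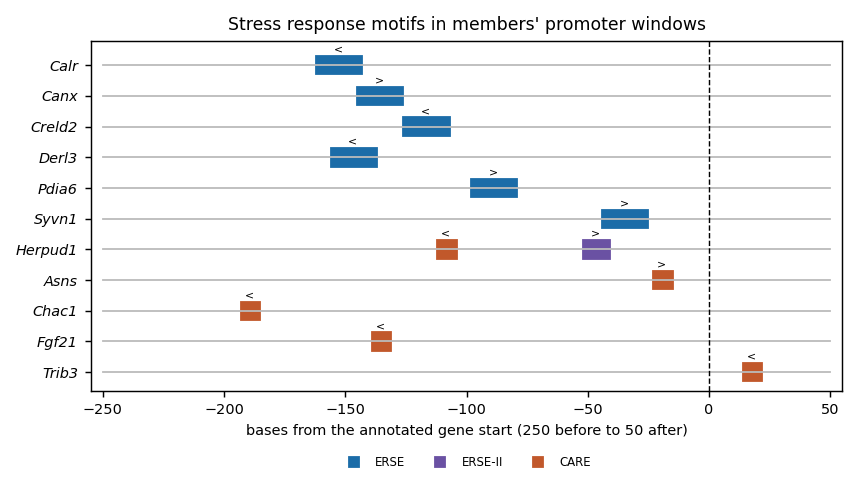
Position of each motif match in the promoter windows of 11 members, in bases from the annotated gene start (dashed line), with colours for ERSE, ERSE-II and CARE and arrowheads for the strand on which the motif reads (> the gene's, < the other). The ERSE matches of Calr, Derl3, Canx, Creld2 and Pdia6 begin 98 to 162 bases before the start, and that of Syvn1 begins 44 bases before it.

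The comparison asked whether these stress genes differed between KO and WT hearts under load. None of the 36 measured members passed the threshold in either direction: 0 were called by limma at an adjusted p of 0.05, where 0.549% of all 18029 main probe sets were (0.322% higher and 0.227% lower). At that share a list of this length would hold fewer than 1 call. At an unadjusted p under 0.05, 4 members lay higher (Ppp1r15a, Atf4, Edem1 and Fgf21) and 2 lower (Herpud1 and Atf6), 6 of 36, where 11.5% of all main probe sets had such a p (5.19% higher and 6.33% lower). The KO arrays lay wholly above the WT arrays for those same 4 and wholly below for 3 (Herpud1, Atf6 and Canx), 7 of 36, where the groups did not overlap in 16.7% of all main probe sets (7.34% higher and 9.38% lower). The median difference over members was 0.01 on the log2 scale, beside -0.0020 over all main probe sets, and differences ran from -0.46 to 0.45. For 26 of the 36 members the 95% interval of the difference lay within 0.5 on either side of 0, against 82.1% of all main probe sets. The missing calls with 3 mice in each group do not show that the genes were alike. Without WT replicate 3, KO replicate 1 or both, 0 members passed by limma in each case and 6, 5 and 5 had an unadjusted p under 0.05, beside 9.09%, 8.83% and 6.94% of all main probe sets.

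**Figure D2:**
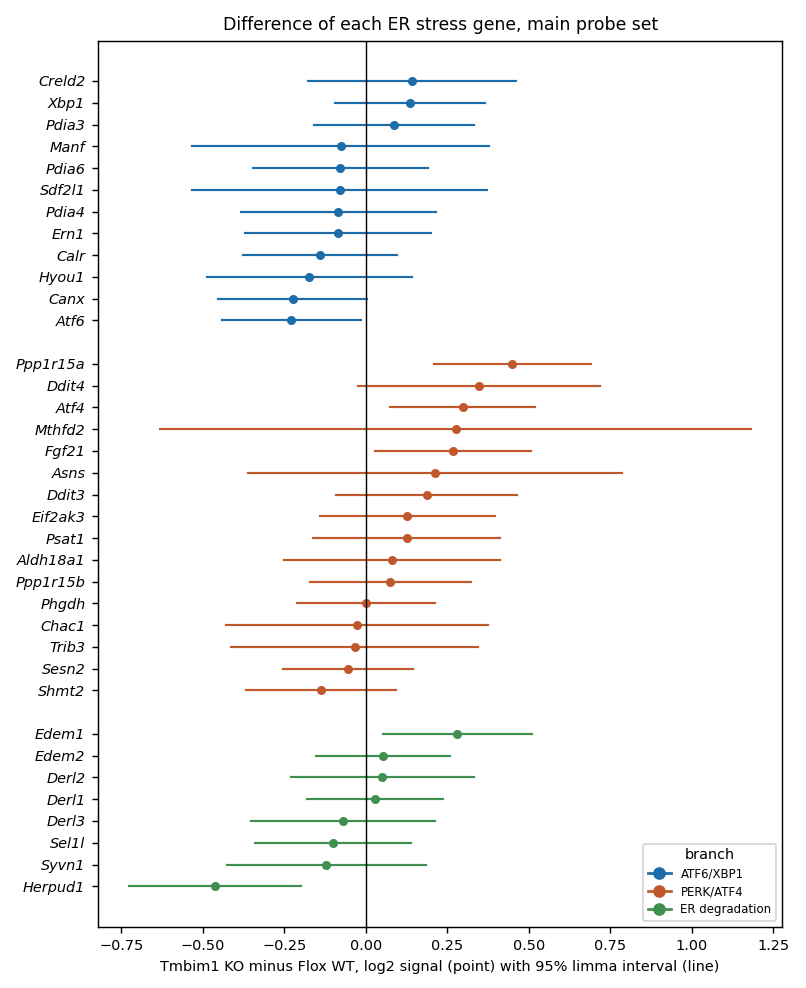
Difference of log2 signal, Tmbim1 KO minus Flox WT, for the 36 measured members (points) with 95% limma intervals (lines), n = 3 mice each, sorted within each arm. Differences run from -0.46 for Herpud1 to 0.45 for Ppp1r15a, and the interval of Mthfd2 is the widest.

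Of the 3 sensors, Atf6 lay lower in KO hearts without passing the threshold. Atf6 had log2 signals of 8.43, 8.31 and 8.29 in KO hearts, against 8.63, 8.49 and 8.60 in WT hearts. The groups did not overlap, with a difference of -0.23 (SE 0.10, limma adjusted p = 0.429) and an interval from -0.44 to -0.02. The dimmer probe sets of Atf6, at -0.13 and -0.10, had overlapping groups. Ern1 had 6.21, 6.22 and 6.59 in KO hearts, against 6.49, 6.52 and 6.27 in WT hearts. Its groups overlapped, KO replicate 3 being the highest of all 6 (-0.09, adjusted p = 0.890), and its 4 dimmer probe sets were at 0.00 to 0.15. Eif2ak3 had 5.33, 5.19 and 5.34 in KO hearts, against 5.36, 5.18 and 4.94 in WT hearts, overlapping groups with a difference of 0.13 (adjusted p = 0.803). It was 0.017 without WT replicate 3 and 0.23 without WT replicate 1, and the 2 dimmer probe sets were at -0.08 and -0.01. Those 2 probe sets had mean signals of 2.16 and 2.66, also below the lower quartile of every array.

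Xbp1, the transcription factor downstream of IRE1, averaged 9.50 ± 0.06 in KO hearts and 9.36 ± 0.13 in WT hearts (SD, n = 3 each). It had 9.55, 9.44 and 9.51 in KO hearts, against 9.31, 9.27 and 9.52 in WT hearts, so WT replicate 3 lay inside the KO range and the other WT hearts below it. The difference was 0.14 (SE 0.10, adjusted p = 0.736). All 4 Xbp1 probe sets had positive differences, between 0.08 and 0.15. Whether any of them distinguishes spliced from unspliced messenger is not known here.

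The genes of the ATF6/XBP1 arm mostly had small negative differences. Over the 12 genes, which include Ern1, Atf6 and Xbp1, 9 were below 0 and 3 above, with a median of -0.08, and 0 passed. Of all main probe sets 49.4% were above 0. Canx, which encodes calnexin, a membrane lectin that holds newly made glycoproteins, had 9.88, 9.87 and 9.95 in KO hearts, against 10.20, 9.96 and 10.21 in WT hearts. The groups did not overlap (-0.22, SE 0.10, adjusted p = 0.485), and the other 2 Canx probe sets, at -0.35 and -0.21, had the same sign. Calr, the soluble relative calreticulin, had 10.15, 10.13 and 10.36 in KO hearts, against 10.40, 10.24 and 10.42 in WT hearts. Here the groups overlapped (-0.14, adjusted p = 0.734), with both other probe sets at -0.19. The disulfide isomerase genes Pdia3, Pdia4 and Pdia6 were at 0.09, -0.08 and -0.08, and the chaperone gene Hyou1 was at -0.17.

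The SD was larger in WT than in KO hearts for 10 of the 12 genes of this arm. Wild type replicate 3 was the highest of the 6 arrays for 9 of the 12 members of the arm, where it was the highest in 20.4% of all main probe sets. Manf, a secreted survival factor of the stressed ER, had 8.15, 8.29 and 8.31 in KO hearts, against 7.90, 8.22 and 8.87 in WT hearts. Sdf2l1, a cofactor of ER chaperones, had 6.17, 6.11 and 6.09 in KO hearts, against 5.73, 6.16 and 6.72 in WT hearts. The KO hearts lay between the lowest and the highest WT heart for both genes, with SDs of 0.09 and 0.04 in KO hearts and 0.49 and 0.50 in WT hearts. Creld2, a disulfide isomerase-like stress gene, had 6.78, 6.92 and 7.03 in KO hearts, against 6.54, 6.69 and 7.08 in WT hearts, with the KO range again inside that of WT. Without wild type replicate 3, 7 of the 12 differences were above 0 and the median turned to 0.04. These genes were picked for this account after their values were seen.

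**Figure D3:**
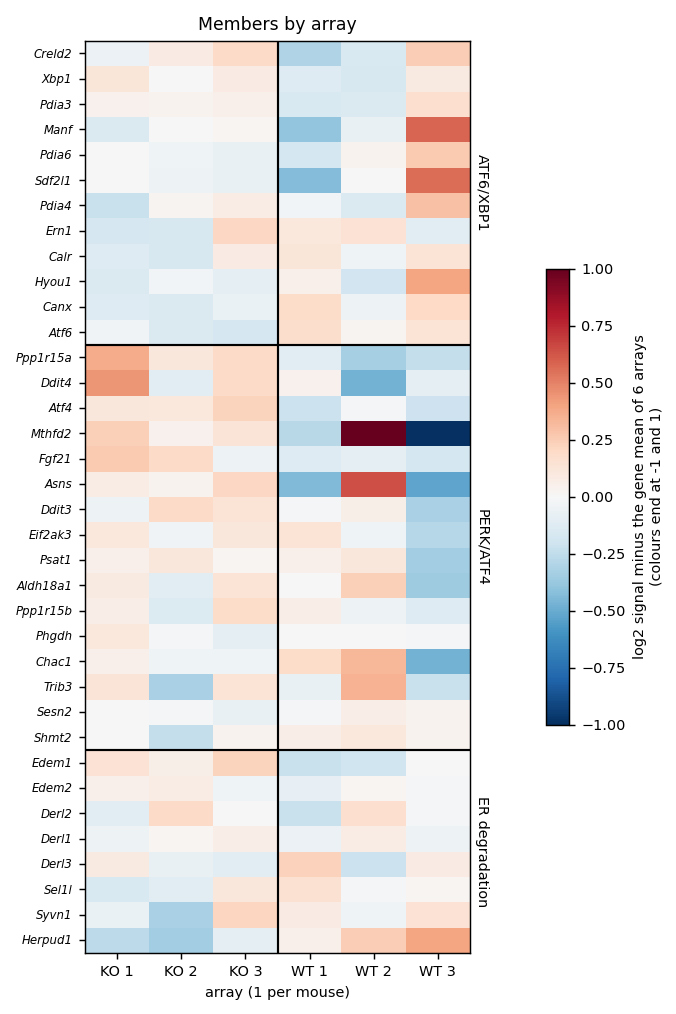
Log2 signal of each of the 36 measured members (rows, by arm) on each array (columns, 3 KO then 3 WT mice) minus the gene's mean over the 6 arrays. Wild type replicate 3 is the highest array in 9 of 12 ATF6/XBP1 members and the lowest in 8 of 16 PERK/ATF4 members.

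The PERK/ATF4 arm leaned the other way, with 12 of 16 differences above 0 and a median of 0.13, where 49.4% of all main probe sets were above 0, and again 0 passed. Without wild type replicate 3 the median of the arm was 0.00, with 8 differences above 0 and 8 below. Ppp1r15a (GADD34), the stress-induced phosphatase subunit that reverses eIF2alpha phosphorylation, had 7.28, 7.02 and 7.10 in KO hearts, against 6.80, 6.58 and 6.68 in WT hearts. Every KO value exceeded every WT value (0.45, SE 0.11, adjusted p = 0.147; unadjusted p = 0.00199), a 1.37-fold difference. The related constitutive subunit gene Ppp1r15b was at 0.08. Atf4, the transcription factor of the arm, had 9.56, 9.55 and 9.67 in KO hearts, against 9.23, 9.42 and 9.23 in WT hearts. These groups did not overlap either (0.30, SE 0.10, adjusted p = 0.298), while its 2 dimmer probe sets, at 0.12 and -0.12, disagreed in sign. Ddit3 (CHOP), a transcription factor that promotes cell death in prolonged stress, had 7.40, 7.64 and 7.59 in KO hearts, against 7.44, 7.51 and 7.12 in WT hearts. Its groups overlapped (0.19, adjusted p = 0.683), and the difference was 0.07 without WT replicate 3. The dimmer probe set of Ddit3 was at 0.016.

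Ddit4 (REDD1), an inhibitor of mTORC1 signalling that also answers to hypoxia and glucocorticoids, had 9.59, 9.03 and 9.34 in KO hearts, against 9.19, 8.68 and 9.06 in WT hearts. Its groups overlapped, KO replicate 2 lying below WT replicate 1 (0.35, SE 0.17, adjusted p = 0.508), and the difference was 0.21 without KO replicate 1 and 0.20 without WT replicate 2. Fgf21, a hormone gene induced by ATF4, had 3.27, 3.20 and 2.96 in KO hearts, against 2.88, 2.92 and 2.83 in WT hearts. The groups did not overlap (0.27, SE 0.11, adjusted p = 0.407). Fgf21 was the dimmest member, its WT signals lying just above the lower quartile of the arrays (2.72 to 2.78), where differences on this scale can be compressed.

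Immediate early and heat shock genes, listed as possible signs of handling and early stress, also had higher summed signals in KO hearts. Of 10 immediate early genes listed as such a sign, 4 passed by limma, all higher (background 0.322%), and their summed linear signal was 1926 to 2410 in KO hearts and 847 to 1194 in WT hearts. Of 8 cytosolic heat shock genes 2 passed, both higher, with sums of 13988 to 14457 in KO hearts and 11514 to 12186 in WT hearts. Their part in the values of Ppp1r15a, Atf4 and Ddit4 was not tested.

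**Figure D4:**
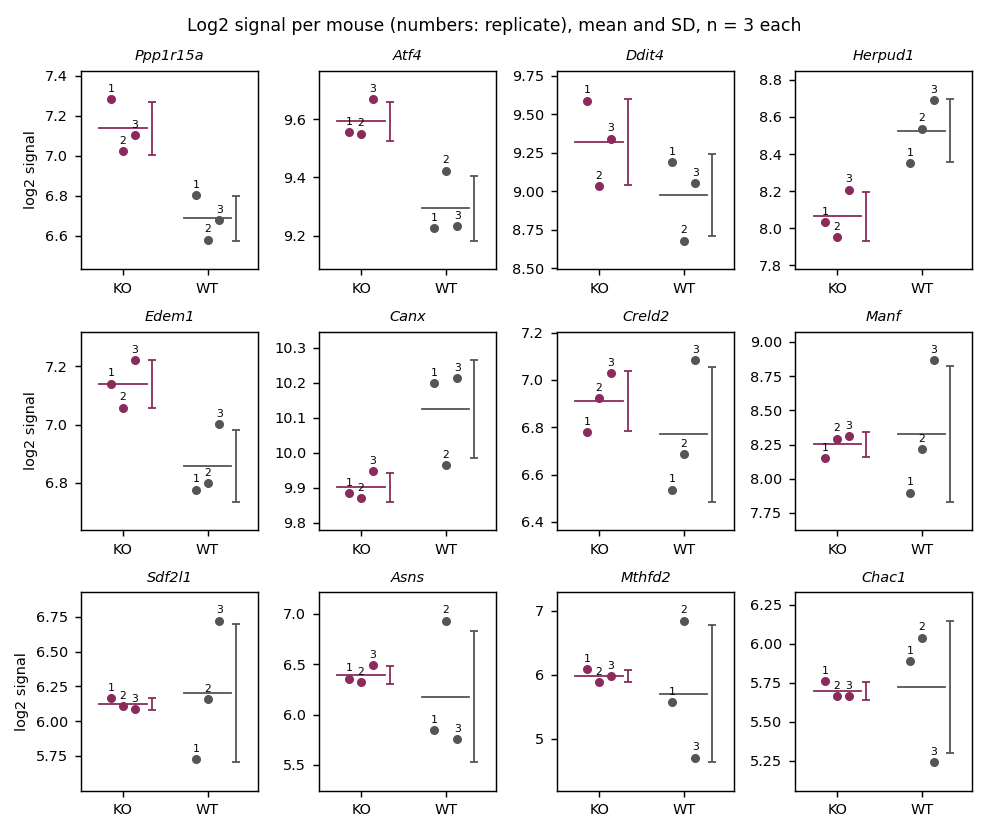
Log2 signal of 12 members in each mouse (points, numbered by replicate; KO left, WT right; each panel has its own axis range, not starting at 0), with the mean (horizontal line) and SD (error bar), n = 3 each. The groups do not overlap for Ppp1r15a, Atf4, Herpud1, Edem1 and Canx, whereas the KO hearts lie within the WT range for Creld2, Manf, Sdf2l1, Asns, Mthfd2 and Chac1.

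Asns, Mthfd2 and Chac1, targets of ATF4, varied more between WT mice than between genotypes. Asns, asparagine synthetase, had 6.36, 6.32 and 6.49 in KO hearts, against 5.84, 6.93 and 5.76 in WT hearts. Mthfd2, a mitochondrial folate enzyme, had 6.08, 5.89 and 5.97 in KO hearts, against 5.57, 6.84 and 4.70 in WT hearts. Both genes were highest in wild type replicate 2 and lowest in wild type replicate 3, and the KO values lay between them. The Mthfd2 difference was 0.28 with an interval from -0.63 to 1.18, and that of Asns 0.21 with an interval from -0.36 to 0.79. Chac1, a glutathione-degrading enzyme, had 5.76, 5.66 and 5.66 in KO hearts, against 5.89, 6.04 and 5.24 in WT hearts, with the same WT replicates at the extremes. Aldh18a1, of proline synthesis, was also highest in WT replicate 2 and lowest in WT replicate 3 (0.08).

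Wild type replicate 3 was the lowest of the 6 arrays for 8 of the 16 members of the PERK/ATF4 arm, where it was the lowest in 21.0% of all main probe sets. Over all 36 members the SD was larger in WT than in KO hearts for 25, and this held for 59.1% of all main probe sets. Other members of the arm had smaller differences. The serine synthesis genes Psat1 and Phgdh were at 0.13 and 0.00, a second probe set of Psat1 being at -0.28 (adjusted p = 0.367). Shmt2, a mitochondrial serine hydroxymethyltransferase, was at -0.14, the stress-induced metabolic regulator Sesn2 at -0.05 and the pseudokinase gene Trib3 at -0.03. A dimmer probe set of Sesn2 was at -0.28 (limma adjusted p = 0.479). The main probe sets of Phgdh, Shmt2 and Aldh18a1 belong to a class whose probes can match more than 1 transcript. This also holds for those of Xbp1, Canx, Hyou1, Syvn1 and Derl1, which belong to another such class.

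Wild type replicate 3 also stood apart in its cell type markers. The summed signal of 8 fibroblast markers was 15457 to 17028 in KO hearts, against 14445, 13512 and 8326 in WT hearts, the last being replicate 3. That of 8 cardiomyocyte markers was 73900 to 74904 in KO hearts and 78087 to 80819 in WT hearts, with 7 of the 8 not overlapping, all lower (background 9.38%). Macrophage markers summed to 3034 to 3324 in KO hearts and 2359 to 3031 in WT hearts, and endothelial markers to 1315 to 1495 in KO hearts and 1406 to 1531 in WT hearts. Plasma and B cell markers summed to 107 to 111 in KO hearts and 93.7 to 128 in WT hearts. The 5 atrial markers summed to 10548 to 34189 in KO hearts and 3746 to 6589 in WT hearts. Nppa, the brightest of the 5 on every array, was higher in each KO heart than in any WT heart. Myl7, Myl4 and Sln were high in KO replicate 1 alone, Myl7 at 12.86 against 3.45 to 3.90 on the other arrays. The atrial sums of KO replicates 2 and 3 therefore do not show atrial tissue in those hearts. Of the cardiomyocyte markers 0 lay below the lower quartile on all 6 arrays. Of the 6 neutrophil markers 4 were measured, with sums of 100 to 147 in KO hearts and 60.3 to 81.2 in WT hearts, and 1 lay below the lower quartile throughout. In these bulk heart samples fewer cells of a type and less RNA per cell cannot be told apart, and the part of cell mix in the values above was not tested.

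ER degradation genes, which return misfolded proteins to the cytosol for the proteasome, included Herpud1, the member with the most negative difference. Over the 8 members 4 were above 0 and 4 below, with a median of -0.02, and 0 passed. Herpud1, a membrane scaffold of the degradation complex whose promoter is printed above, had 8.03, 7.95 and 8.21 in KO hearts, against 8.35, 8.54 and 8.69 in WT hearts. The groups did not overlap, and the difference of -0.46 (SE 0.12, adjusted p = 0.168; unadjusted p = 0.00292) was a 1.38-fold difference on the linear scale. Its second probe set had 8.02, 7.99 and 8.27 in KO hearts, against 8.33, 8.46 and 8.65 in WT hearts, also with no overlap (-0.39, adjusted p = 0.250).

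Edem1, which directs misfolded glycoproteins to degradation by acting on their mannose trees, had 7.14, 7.06 and 7.22 in KO hearts, against 6.78, 6.80 and 7.00 in WT hearts. All KO hearts were above all WT hearts (0.28, SE 0.10, adjusted p = 0.346). The dimmer probe set of Edem1 had 5.76, 5.60 and 5.75 in KO hearts, against 5.13, 5.32 and 5.10 in WT hearts. Its difference of 0.52 (SE 0.10, adjusted p = 0.0799) had the smallest p of any of the 87 members' probe sets. Of the 51 probe sets other than the main ones, 0 passed by limma (0.422% of all 38195 probe sets did), 4 had an unadjusted p under 0.05 (Edem1, Herpud1, Canx and Psat1; 10.6% of all probe sets did), and 33 had the sign of the main one.

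The ubiquitin ligase gene Syvn1 (HRD1) had 5.94, 5.69 and 6.23 in KO hearts, against 6.09, 5.97 and 6.16 in WT hearts. Its partner Sel1l had 7.40, 7.44 and 7.66 in KO hearts, against 7.70, 7.53 and 7.58 in WT hearts. Both pairs of groups overlapped, with differences of -0.12 (adjusted p = 0.843) and -0.10 (adjusted p = 0.831). Edem2 (0.05) and the channel-forming derlin genes Derl1 (0.03), Derl2 (0.05) and Derl3 (-0.07) were near 0. The intervals at these main probe sets reached no further than 0.35 on either side. The other Derl2 probe set was at -0.17 with an interval from -0.61 to 0.27. Other probe sets of Derl1 were between -0.09 and 0.13, with an interval reaching 0.44.

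The members with an ERSE in the printed windows were at -0.14 (Calr), -0.22 (Canx), -0.08 (Pdia6), 0.14 (Creld2), -0.07 (Derl3) and -0.12 (Syvn1). Those with a CARE were at 0.21 (Asns), -0.03 (Chac1), -0.03 (Trib3), 0.27 (Fgf21) and -0.46 (Herpud1). No member of either set passed, and no order between the sets was tested.

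A wider set of 79 pathway genes, of which 75 were measured, held 1 gene past the threshold. That gene was Atf3, a stress-induced transcription factor downstream of ATF4 that is also an immediate early gene and stands in that list too. It had 8.17, 7.50 and 8.06 in KO hearts, against 6.45, 6.25 and 6.04 in WT hearts, all KO values being above all WT values. It rose by 1.66 (SE 0.17, limma adjusted p = 0.00485), or 3.16-fold, and its adjusted p was 0.0550 with both KO replicate 1 and WT replicate 3 left out. Of the 21 measured genes in its list of eIF2alpha kinases, ATF4 partners and ATF4 targets, Atf3 was the 1 that passed. An unadjusted p under 0.05 was found for 8 of them, 4 in each direction, beside 11.5% of all main probe sets. Of the 21, 10 were above 0 with a median of -0.03, the opposite sign to the median of the PERK/ATF4 members. In that list the C/EBP factor gene Cebpb was at 0.60 (adjusted p = 0.179) and Cth, of cysteine synthesis, at -0.37 (adjusted p = 0.192). The 11 measured cytosolic tRNA ligases, whose genes ATF4 can induce, had a median of -0.03 with 0 passing and 1 at an unadjusted p under 0.05, Sars1 at 0.23. Lars1 was at -0.22 and Mars1 at -0.18. With all of a gene's probe sets averaged, Sars1 was at 0.13 and Cebpb at 0.63.

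Among 26 further ATF6/XBP1 and folding genes 0 passed by limma, and 6 had an unadjusted p under 0.05, 3 in each direction. Of the 26, 19 were above 0 with a median of 0.04, the opposite sign to the median of the 12 members of the arm. Hspa5 (BiP), the main ER chaperone, had 9.91, 9.72 and 9.95 in KO hearts, against 10.30, 10.03 and 10.52 in WT hearts. The groups did not overlap (-0.42, SE 0.13, adjusted p = 0.265). Wfs1, an ER membrane protein, was at -0.43 (adjusted p = 0.160), and Ero1a, the oxidase that recharges disulfide isomerases, at 0.41 (adjusted p = 0.150). Of 17 further ER degradation genes 0 passed, 0 had an unadjusted p under 0.05, and Vcp, the ATPase that pulls substrates out of the membrane, was at -0.19. Marchf6 (-0.22) and Selenos (0.18) were the other 2 with the smallest p. With all of a gene's probe sets averaged, Hspa5 was at -0.27, Ero1a at 0.34, Marchf6 at -0.07 and Selenos at 0.18. Over the 75 genes, 15 had an unadjusted p under 0.05, or 20.0%, beside 11.5% of all main probe sets. These lists were chosen with earlier results of these data known, so the shares are description only.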

How the data were processed

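The authors deposited log2 signals per probe set from Affymetrix arrays hybridised with biotin-labelled cRNA from 400 ng of total RNA. Per the submitters' processing notes RMA and limma were used; no version or setting is given in the sources used here. RMA makes the arrays' distributions alike, so an overall shift between groups would be removed, and it compresses differences at the dim end. Array medians lay between 4.24 and 4.28.

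After 13 control probe sets were left out, 38195 were fitted with limma 3.58.1 in R 4.3.3 (lmFit and eBayes, two-sided), with Benjamini-Hochberg adjustment over all of them and a threshold of 0.05. In all, 161 passed (0.422%). All adjusted p-values in the text are from this limma fit unless another setting is named. Differences are KO minus WT in log2 signal. The code was tested on simulated data. The number of arrays limits the precision.

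Gene names came from the platform annotation, and older symbols were matched through GRCm38.p6 gene tables. Values in every array are given for the sensors and main transcription factors, for the 4 members of each arm with the smallest p, and for members shown as examples of spread, which were chosen after their values were seen. From each list of other pathway genes, those past the threshold and up to 3 with the smallest p are named. Members and lists were chosen with earlier results of these data known. Per the labels, the samples are biological ones, 3 for each genotype.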

Additional observations from a re-analysis of the deposited data

How the results depend on the processing

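No member passed under any of the 16 alternatives run, which were the replicate number as a block, robust and trended priors, array weights, median centring, quantile normalization once more, dropping dim probe sets, 1 probe set per gene, averaging all of a gene's probe sets, each array left out, and 2 arrays left out together (KO replicate 1 and WT replicate 3, chosen after seeing the data). The count of 161 among 38195 probe sets was 29 with the 2 arrays left out and 38 to 86 with single arrays left out. With 1 probe set per gene it was 102, among only 18029 fitted. With the replicate block 168 of all probe sets passed, and 0 members did. The labels do not state that same-numbered mice were paired, so the numbers were not taken as pairs. The deviations of same-numbered mice correlated at 0.06, 0.14 and 0.02, which with so few mice cannot decide the question. By limma with the block the SE of Ddit4 was 0.09 instead of 0.17, and its adjusted p was 0.209 instead of 0.508. The ATF6/XBP1 median of -0.08 was 0.074 with the 2 arrays left out and -0.15 to 0.04 with single arrays left out. The PERK/ATF4 median of 0.13 was 0.052 with all probe sets averaged, -0.0094 with the 2 arrays left out and 8.38e-05 to 0.21 with single arrays left out. The ER degradation median of -0.02 was -0.065 with all probe sets averaged and -0.033 to -0.0054 with single arrays left out. Eif2ak3 was at -0.0046 with the 2 arrays left out, Ern1 at 0.027 with all probe sets averaged, and Syvn1 between -0.26 and 0.011 with single arrays left out. Atf3 was at 1.43 with the 2 arrays left out. For these changes the cause was not tested beyond the arrays left out.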
